A study of Mus musculus with 6 samples.

Results

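The 4 genes described here, Mir126a, Mir126b, Mir143 and Mir145a, encode miRNAs known from the cells of blood vessels, and they were chosen by name from the 30638 features of the table, 2207 of which are annotated as miRNA genes. Small RNA was counted in whole hearts of 6 C57BL/6 mice. The 3 control mice are titled L/L, with loxP sites around an exon of Elac2 and no cre, and carry the genotype label Elac2 +/+. The 3 knockout mice are titled L/L, cre, with the label Elac2 -/-, and had that exon removed by a cre recombinase driven by the muscle creatine kinase promoter. The label fields used here state no age. That promoter is known for its activity in heart and skeletal muscle cells, and whether cells of the vessel wall lost the exon was not measured here. Elac2 encodes RNase Z, which removes the 3′ trailer of precursor tRNAs.

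A miRNA is cut from a hairpin in a longer primary transcript by Drosha and then Dicer, and 1 strand of the resulting duplex guides Argonaute to mRNAs through its seed, the bases near its 5′ end. Mir126a is the best known miRNA of endothelial cells, the lining of vessels. It lies in Egfl7, a gene for a factor secreted by endothelium, and its product is known to lower Spred1, an inhibitor of growth factor signalling, and the adhesion molecule Vcam1. Mir143 and Mir145a form a cluster known from vascular smooth muscle and other contractile and mesenchymal cells. Serum response factor and myocardin are known to switch the cluster on, and Klf4, a factor that holds smooth muscle cells in an undifferentiated state, is a known target of miR-145.

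In GRCm38 (mm10), Mir126a lies on the plus strand of chromosome 2 from 26591357 to 26591429. GENCODE M21 places it inside Egfl7 on the same strand. Of 9 Egfl7 transcripts that span it, 8 have it in an intron and 1, a retained-intron transcript, has an exon over it. Mir126b lies on the opposite strand, from 26591363 to 26591420, wholly within Mir126a. The RefSeq sequences (GRCm38.p6) of both hairpins are shown because the counts below are given for each gene of this 1 locus. The mature products given below are in capitals.

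Mir126a hairpin: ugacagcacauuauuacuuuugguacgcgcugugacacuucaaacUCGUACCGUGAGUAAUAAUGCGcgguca
Mir126b hairpin: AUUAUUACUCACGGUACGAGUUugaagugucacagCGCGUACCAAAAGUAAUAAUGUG

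The reverse complement of the Mir126b hairpin matched bases 7 to 64 of the Mir126a hairpin without a gap. The mature products follow with their seeds (bases 2 to 8 from the 5′ end) in capitals, since the seed sets which mRNAs a miRNA can pair with; miR-126a-5p, the other product of Mir126a, is not shown.

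mmu-miR-126a-3p: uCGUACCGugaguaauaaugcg
mmu-miR-126b-5p: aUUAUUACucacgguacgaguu
mmu-miR-126b-3p: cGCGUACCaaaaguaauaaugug

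The 3 products shown have different seeds, although miR-126a-3p and miR-126b-5p cover 19 of the same genome positions. Each of the 3 seeds occurred in only 1 of the 1738 mature miRNAs of the RefSeq table searched, and the miR-126a-3p sequence occurred in 1 of its 1005 hairpins. Mir143 (61649196 to 61649258) and Mir145a (61647825 to 61647894) lie on the minus strand of chromosome 18, separated by 1301 bases. In GENCODE M21 neither lies within another gene. The lincRNA gene Carmn, on the same strand, ends 366 bases before Mir143. Counts were given per hairpin, so the arms of a hairpin were not told apart.

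Libraries held inserts of 15 to 100 nt and 13510061 to 16248673 counts each. The share of counts in miRNA genes was 39.5% to 43.4% in control and 29.2% to 33.3% in knockout hearts, while snoRNA and scaRNA genes, which guide RNA modification, held 39.3% to 42.6% and 61.7% to 64.1%. Of 1144 features tested with edgeR's quasi-likelihood test, 50.2% were called at a Benjamini-Hochberg adjusted p under 0.05, 23.2% higher and 27.0% lower in knockout hearts. Among the 312 miRNA features tested, 23.4% were called, 17.0% higher and 6.41% lower. The median log2 fold change was -0.01 over all features and 0.21 over miRNA features. Of the 4 genes, Mir126a, Mir143 and Mir145a had enough counts to be tested.

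Mir126a, the endothelial gene, was one of the most abundant miRNAs of these hearts. The control hearts (replicates 1, 2 and 3) gave 365529, 376621 and 357434 counts and the knockout hearts 242547, 265083 and 272186. In counts per 1000000 (CPM) after TMM scaling, which sets libraries to a common level of the bulk of features, the controls stood at 23763, 21215 and 19531 and the knockouts at 17620, 20972 and 20485. Raw counts were lower in every knockout library, but the scaled levels overlapped: knockout replicates 2 and 3 lay above control replicate 3. The mean went from 21503 ± 2131 CPM (SD, n = 3) to 19692 ± 1811 CPM (SD, n = 3). The log2 fold change of -0.13 (SE 0.13) did not pass edgeR's test (adjusted p = 0.424). Its 95% interval, expressed as a fold of control, ran from 0.756 to 1.11.

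Mir126b, the antisense gene at the same locus, had 0 counts in all 6 libraries. Mir126a therefore had at least 80849 to 125540 times as many counts per library, taking 3 counts as the limit that a count of 0 allows. That limit corresponds to at most 7.09e-05% of the miRNA counts of any library and covers counting error only. Of these genes, only Mir126a was thus given reads, and how strand and overlap were treated in the counting is not known here. The table held 32 pairs of miRNA genes that overlap on opposite strands. In 16 of them the more abundant gene had at least 1000 counts over all libraries, and in 15 of these 16 the other gene held under 1% of the pair's counts. The exception, seen after the values were known, was Mir3107 with Mir486, where the less abundant gene held 47.7%.

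Mir143, the more abundant gene of the smooth muscle cluster, had 505328, 577366 and 477136 counts in control and 296497, 359983 and 389862 in knockout hearts. Scaled, the control libraries stood at 32852, 32523 and 26072 CPM and the knockout libraries at 21539, 28480 and 29341 CPM. The lowest value came from knockout replicate 1, and the other knockout libraries lay above control replicate 3. The control mean of 30482 ± 3823 CPM (SD, n = 3) stood beside a knockout mean of 26453 ± 4278 CPM (SD, n = 3), a log2 fold change of -0.20 (SE 0.15, edgeR adjusted p = 0.269) that did not pass the test. The 95% interval ran from 0.694 to 1.09 times control.

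Mir145a, its partner in the cluster, was far less abundant, with 11107, 14994 and 10967 counts in control and 7340, 7504 and 9216 in knockout hearts. Scaled, the controls stood at 722, 845 and 599 CPM and the knockouts at 533, 594 and 694 CPM. The groups overlapped, since knockout replicate 3 lay above control replicate 3. The control mean was 722 ± 123 CPM and the knockout mean 607 ± 81.0 CPM (each SD, n = 3). The log2 fold change was -0.25 (SE 0.18, edgeR adjusted p = 0.277), which did not pass, with a 95% interval from 0.636 to 1.11 times control. In whole hearts, fewer cells of a type and less RNA per cell cannot be told apart.

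**Figure D1:**
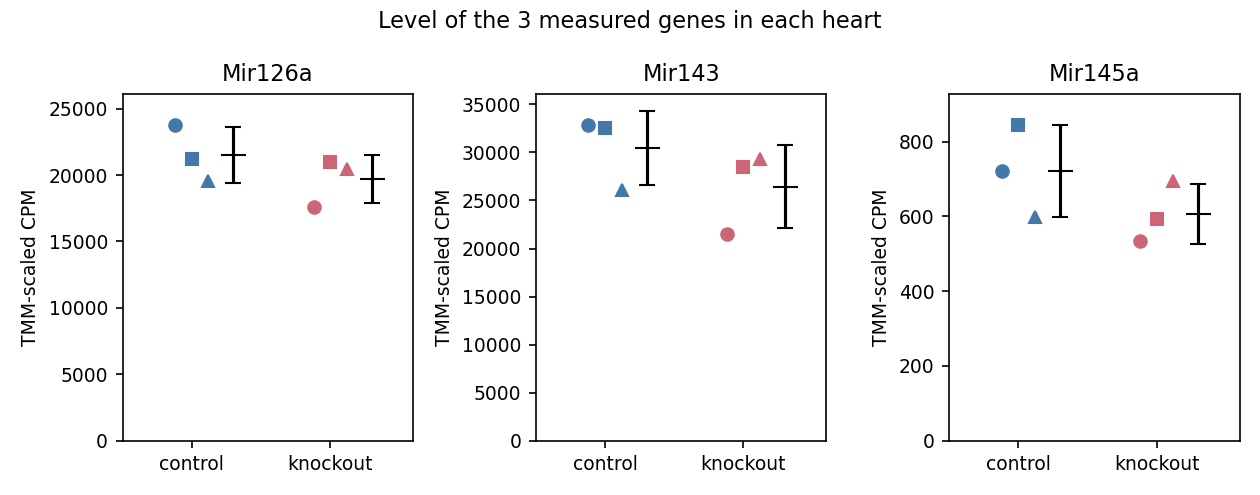
TMM-scaled counts per 1000000 (CPM; y axis, from 0) of Mir126a, Mir143 and Mir145a in 3 control and 3 knockout hearts; circles, squares and triangles are replicates 1, 2 and 3, and black bars are the mean ± SD. The groups overlapped for each gene, with Mir126a between 17620 and 23763 CPM over all 6 libraries.

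Of the 3 genes tested, 0 were called by edgeR, beside 50.2% of all features, 0 had an unadjusted p under 0.05, and 0 were called by DESeq2's Wald test. Their median log2 fold change was -0.20, beside 0.21 for miRNA features. Of the 312 miRNA features tested, 90 had a lower log2 fold change than Mir126a, 74 a lower one than Mir143 and 63 a lower one than Mir145a. The spread among mice of 1 group, as a coefficient of variation of the scaled level, was 9.91% and 9.20% for Mir126a (control and knockout), 12.5% and 16.2% for Mir143 and 17.0% and 13.3% for Mir145a. Scaled levels did not overlap between the groups for 0 of the 3 genes, beside 63.0% of all features and 41.7% of miRNA features.

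Levels of different genes were compared per base of the annotated hairpin. A longer hairpin gets a lower value from the same CPM, and Mir148a has 99 nt against 63 nt for Mir143. Mature products are shorter than hairpins, so the ranks hold for this measure only. By CPM not divided by length, Mir148a lay above Mir143 without overlap in control and in knockout hearts. Mir143 had 484 ± 60.7 CPM per nt (SD, n = 3) in control and 420 ± 67.9 in knockout hearts, where it ranked 3 and 5 among the 312 miRNA features. Its control values (414 to 521) overlapped those of Mir148a (379 to 465), the next in order. In knockout hearts its values (342 to 466) overlapped those of Mir148a (403 to 622) and Mir99a (355 to 507), both now above it in the mean. Mir126a ranked 6 in each group, with 295 ± 29.2 CPM per nt in control and 270 ± 24.8 in knockout hearts, and overlapped Mir99a in control (290 to 411) but not in knockout hearts. Mir126a and Mir143 did not overlap in either group. Mir145a had means of 10.3 and 8.67 CPM per nt and ranked 43 and 47. The highest level was that of Mir1a-2 and Mir1a-1, cardiomyocyte genes with the same mature product, with 866 and 808 CPM per nt in control and 566 and 543 in knockout hearts.

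Ratios between genes of 1 library do not depend on the scaling. Counts of Mir143 were 45.5, 38.5 and 43.5 times those of Mir145a in the controls, and 40.4, 48.0 and 42.3 times in the knockouts. The ranges overlapped, and the mean log2 ratio (prior count 2) was 5.41 ± 0.12 for controls and 5.44 ± 0.13 for knockouts (each SD, n = 3), a difference of 0.035 (exact two-sided permutation p = 0.8, adjusted p = 0.8 over 2 ratios). The counts of Mir126a were 0.723, 0.652 and 0.749 times those of Mir143 in control and 0.818, 0.736 and 0.698 times in knockout hearts. This Mir126a to Mir143 ratio had a mean log2 value of -0.50 ± 0.10 in control and -0.42 ± 0.12 in knockout hearts, which differed by less than the spread between replicates (exact two-sided permutation p = 0.5, adjusted p = 0.8, n = 3 per group). With 3 against 3 libraries no exact p can go below 0.1.

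As shares of all counts, the 3 genes lay lower in every knockout library than in every control library. Mir126a held 2.71%, 2.32% and 2.24% of all counts in the controls (replicates 1, 2 and 3) against 1.67%, 1.74% and 1.82% in the knockouts. Mir143 held 3.74%, 3.55% and 2.99% against 2.04%, 2.36% and 2.61%. Mir145a held 0.0822%, 0.0923% and 0.0688% against 0.0506%, 0.0491% and 0.0617%. Each comparison gave p = 0.1 (exact two-sided permutation test, adjusted p = 0.1 over 3 genes), the smallest that the design allows. Groups were apart in this downward way for 42.2% of all tested features and 25.0% of miRNA features (35.6% of miRNA features in either direction). The lower shares stood beside the higher snoRNA share given above, whose part in them was not tested.

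As shares of the miRNA counts alone, the groups overlapped for each gene, while they lay apart for 43.6% of miRNA features, 11.2% with the knockout lower. Mir126a held 5.81% ± 0.376 (SD, n = 3) of miRNA counts in control and 5.56% ± 0.146 in knockout hearts (exact permutation p = 0.4, adjusted p = 0.4 over 3 genes). Mir143 held 8.22% ± 0.561 against 7.43% ± 0.412 (exact permutation p = 0.2, adjusted p = 0.3, n = 3 per group). Mir145a held 0.195% ± 0.0232 against 0.171% ± 0.0149 (exact permutation p = 0.2, adjusted p = 0.3, n = 3 per group). Mir1a-1 had the most counts of any miRNA feature. With it taken out of the miRNA total, the groups overlapped for Mir145a. They lay apart, with the knockout lower, for Mir126a (6.80% to 7.33% against 6.22% to 6.47%) and Mir143 (9.11% to 10.4% against 7.91% to 8.91%, exact permutation p = 0.1 and adjusted p = 0.15 for each of these genes, n = 3 per group). The same was seen for 14.1% of the 311 tested miRNA features that remained (40.8% in either direction). With both Mir1a genes taken out of the total, a choice made after seeing the data, the knockout values lay below the control values without overlap for all 3 genes, as for 17.4% of the 310 tested miRNA features that remained (35.8% in either direction). Mir126a then held 8.91%, 8.77% and 8.62% in control and 7.41%, 7.14% and 7.19% in knockout hearts. On this scale Mir143 held 12.4% ± 0.973 against 9.68% ± 0.617 and Mir145a 0.295% ± 0.0472 against 0.223% ± 0.0206 (exact permutation p = 0.1 and adjusted p = 0.1 for each of the 3 genes, n = 3 per group).

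**Figure D2:**
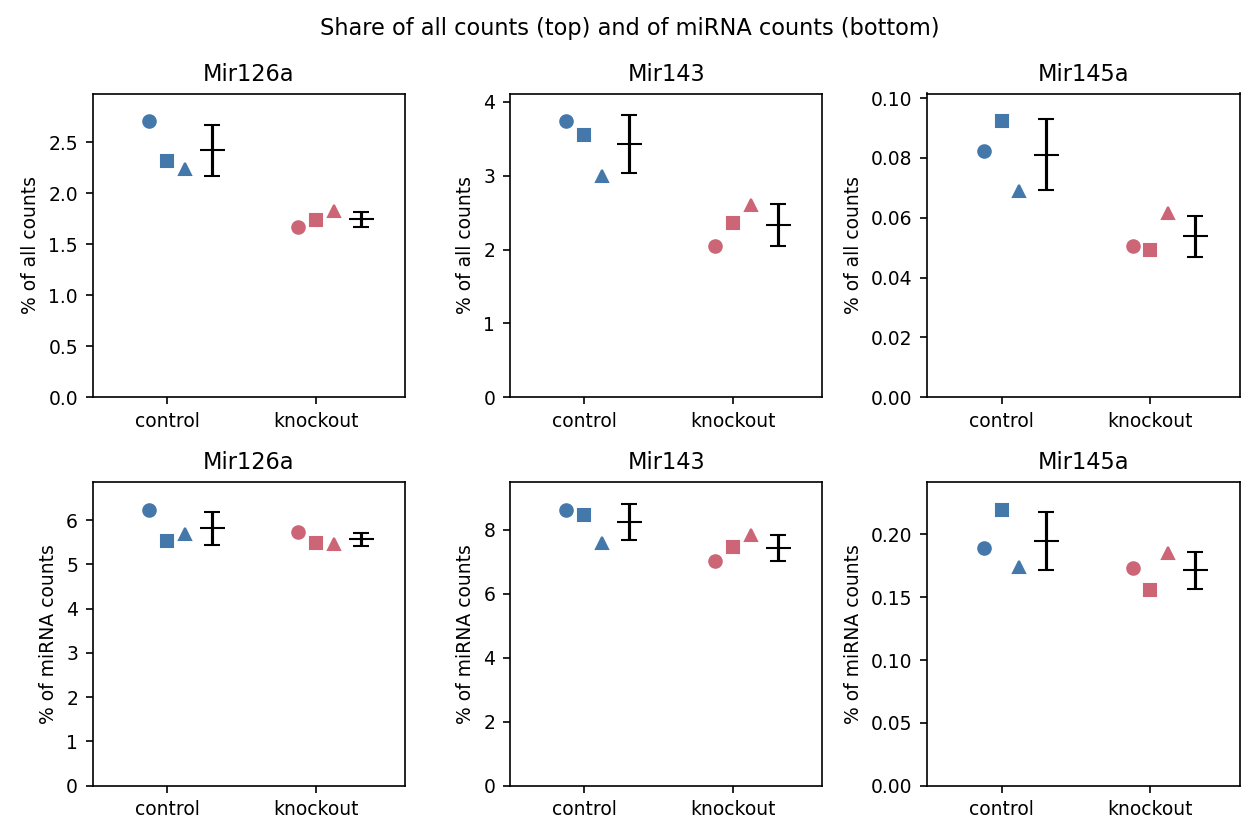
Share of all counts (top row, %) and of miRNA counts (bottom row, %) held by Mir126a, Mir143 and Mir145a in each heart, on axes from 0; circles, squares and triangles are replicates 1, 2 and 3, and black bars are the mean ± SD. Control and knockout hearts are apart in the top row (Mir126a 2.24% to 2.71% against 1.67% to 1.82%) and overlap in the bottom row.

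The fold change of each gene depended on which RNAs set the common level. Scaling by total counts alone gave log2 fold changes of -0.48 for Mir126a, -0.55 for Mir143 and -0.59 for Mir145a, all called lower (edgeR adjusted p = 0.00402, 0.00313 and 0.0147), beside 37.8% of all features and 20.5% of miRNA features. Factors from snoRNA and scaRNA genes gave -0.74, -0.82 and -0.86, also called, beside 46.7% and 31.4%. Factors from miRNA genes gave -0.26, -0.34 and -0.39, which were not called (edgeR adjusted p = 0.0714, 0.0556 and 0.103). Factors from snRNA and nuclear rRNA genes gave 0.38, 0.32 and 0.28 (edgeR adjusted p = 0.345, 0.484 and 0.442), not called and opposite in sign. Against the TMM scaling these settings moved the median of all features by -0.34, -0.61, -0.14 and 0.52. The share of calls that were higher was 46.2% with TMM and 28.2%, 20.1%, 38.1% and 64.0% in the same order.

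**Figure D3:**
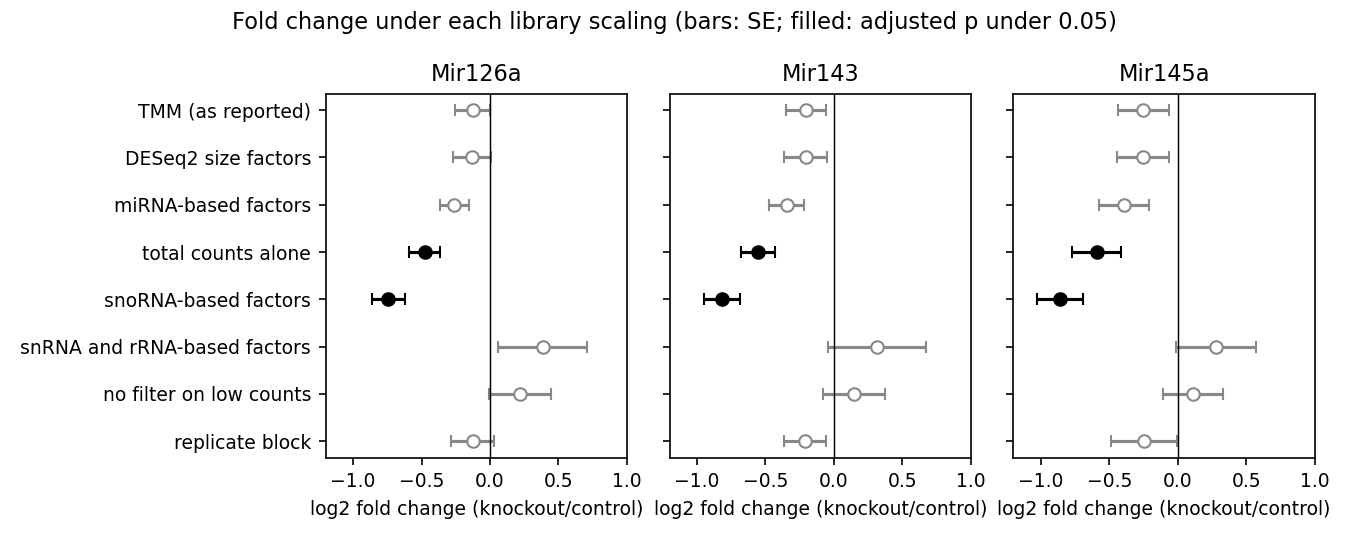
Log2 fold change, knockout over control (x axis), of Mir126a, Mir143 and Mir145a by edgeR under each library scaling, without a filter on low counts and with the replicate number as a block; bars are the SE and filled points have an adjusted p under 0.05. Only total counts and snoRNA-based factors gave called values, from -0.48 to -0.86, and snRNA- and rRNA-based factors and the setting without a filter gave positive ones that were not called.

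In the authors' deposited table, the log2 fold change was -0.17 for Mir143 (adjusted p = 0.559) and -0.21 for Mir145a (adjusted p = 0.446), with an SE of 0.21 for each, and 29.4% of the 2597 features that have an adjusted p had one under 0.05. The authors' deposited table lists Mir126a with a mean of 0 and no fold change, although its normalized counts in the deposited files average 306070. Among features with a mean of at least 50 normalized counts, 69 had under 0.5 times that mean in the authors' deposited table. All 69, Mir126a among them, overlap an exon of another gene on the same strand in GENCODE M21. Of features with no such overlap 0 of 393 were lower in that table, including 0 of 33 that overlap an exon on the opposite strand only. Of features with a same-strand overlap it was 69 of 125. The exon over Mir126a is that of the retained-intron Egfl7 transcript, and Mir143 and Mir145a overlap no exon of another gene. The counting settings behind the deposited counts and behind that table are both not given in the sources used here.

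Few reads came from the long transcripts near Mir143 and Mir145a. Carmn, a lincRNA known as the host of the Mir143 and Mir145a cluster, had 4 counts in all, 2, 1 and 1 in control and 0 in each knockout library. Its neighbour Bvht, a lincRNA known from heart development, had 0. Inserts of at most 100 nt sample such transcripts only as fragments. Mir145b, a separate gene on chromosome 18, had 14 counts over the 6 libraries and was not tested. Egfl7, which spans Mir126a, is not among the features of the table, so no counts of it could be read. Gm20532, the other protein-coding gene that spans Mir126a, was not analysed here.

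Of 35 other genes in the table for miRNAs known from endothelium, vessel growth or vascular smooth muscle, 27 were tested. By edgeR 7 rose and 0 fell at an adjusted p under 0.05, beside 23.2% of all features and 17.0% of miRNA features higher and 27.0% and 6.41% lower. The share that rose by edgeR was near that of all features. DESeq2 also called 7 higher and 0 lower, of the 28 list genes with counts. Beside this it called 8.84% of the 2975 features with an adjusted p and 9.43% of 530 miRNA features higher. These are 263 and 50 features, beside 265 of 1144 and 53 of 312 by edgeR. The lower shares thus came with more features tested, not with fewer calls of this kind. DESeq2 called 19.9% and 3.77% lower. By edgeR, 0 of the list genes below zero had an unadjusted p under 0.05. Their median log2 fold change was 0.08, and 13 of the 27 lay below zero. The list held 7.98% to 8.22% of miRNA counts in control and 10.6% to 12.7% in knockout hearts. Without Mir21a and Mir27b, left out after their values were seen, it held 4.94% to 5.58% and 4.76% to 5.19%, which overlapped. The most abundant was Mir27b, known to act in endothelial sprouting, which rose from a mean of 7685 ± 1584 to one of 13727 ± 782 CPM (SD, n = 3), with a log2 fold change of 0.84 (edgeR adjusted p = 0.000737). It was 6821, 9513 and 6721 CPM in control and 13019, 14567 and 13595 CPM in knockout hearts, with no overlap. Mir21a, a miRNA of smooth muscle growth and of fibroblasts, rose from 3137 ± 42.7 to 9356 ± 1470 CPM, by 1.58 on the log2 scale (SE 0.15, edgeR adjusted p = 6.76e-06). The other 5 that rose, named after their values were seen, were Mir221, Mir222, Mir296, Mir322 and Mir31, with log2 fold changes from 0.52 to 1.70.

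The remaining abundant genes of that list lay near the 3 vascular genes. Mir26a-1 and Mir26a-2, copies with the same main product whose reads cannot be split with certainty, had log2 fold changes of -0.30 and -0.27. Mir100 stood at -0.30, and Mir27a, from the sister cluster of Mir27b, at -0.05 (edgeR adjusted p from 0.0997 to 0.796 for these 4, not called). The next in mean CPM went both ways, with Mir10a at -0.35, Mir23b at 0.36 and Mir24-2 at 0.27. These were named after their values were seen, and edgeR called none of them. Another 7 genes of the list were at 0 in every library: Mir17, Mir18, Mir19a, Mir20a, Mir19b-1, Mir92-1 and Mir155. All 7 lie on an exon of another feature of the table on the same strand, as do 164 of the 2202 miRNA genes that have a position in GENCODE M21. Of these 164, 78.0% were at 0, against 58.7% of the other 2038. With snoRNA-based factors 4 list genes rose, beside 11.7% of all features and 4.81% of miRNA features, and 14 fell, beside 46.7% and 31.4%. With snRNA- and rRNA-based factors 13 rose, beside 35.5% and 37.8%, and 0 fell, beside 19.9% and 1.28%.

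**Figure D4:**
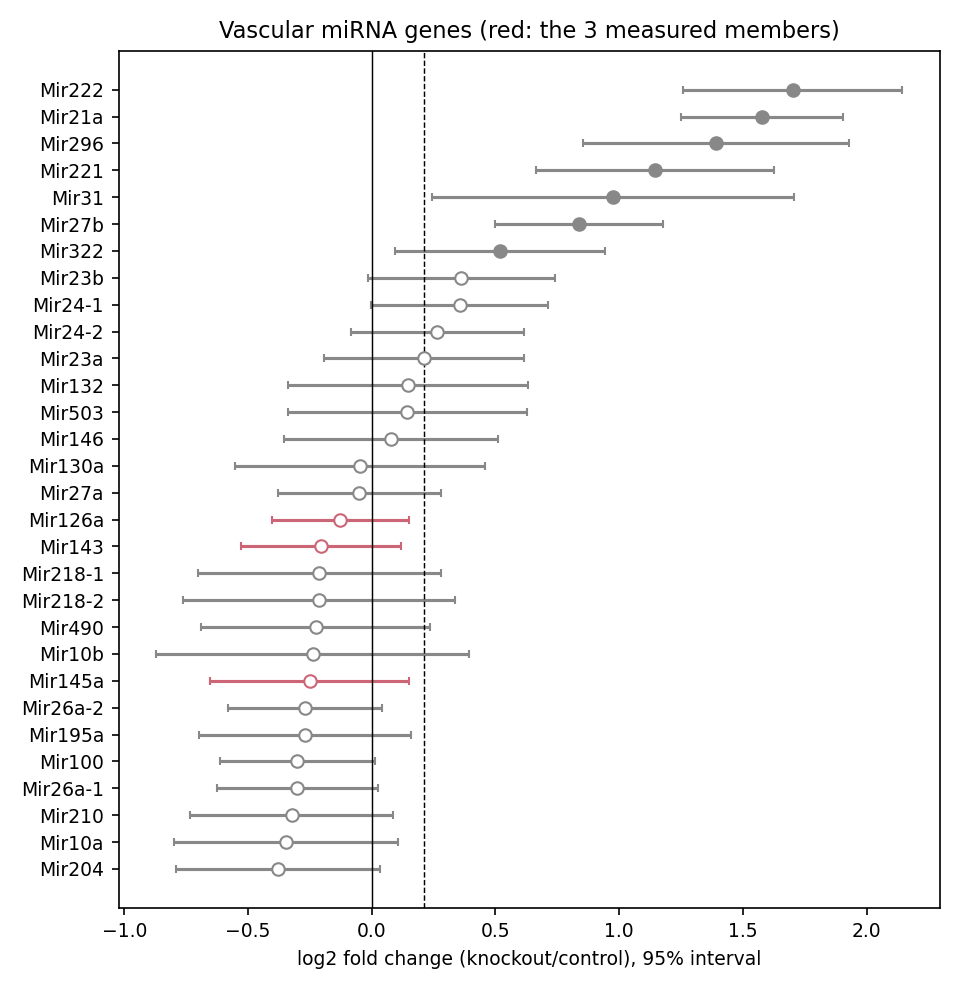
Log2 fold change, knockout over control, with its 95% interval for 27 vascular miRNA genes (grey) and for Mir126a, Mir143 and Mir145a (red), in order of value; filled points have an edgeR adjusted p under 0.05, and the dashed line is the median of 312 miRNA features (0.21). The 7 called genes are all higher in knockout hearts, and the red intervals reach from -0.65 to 0.15 and include 0.

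Apart from the 4 genes themselves, the miRNA features whose pattern over the 6 libraries was closest to that of Mir126a, by the root mean square difference of centred log2 CPM, were Mir27a (0.087), Mir26b (0.089) and Mir26a-2 (0.090), out of 309 compared. For Mir143 they were Mir499 (0.097), Mir26b (0.099) and Mir139 (0.10). Mir499 is a cardiomyocyte miRNA from a myosin intron. None of these 5 features was called by edgeR (log2 fold changes from -0.34 to -0.05). Mir126a and Mir143 differed by 0.099, with 4 features closer to Mir126a and 2 closer to Mir143. Mir145a lay 0.10 from Mir143, with 5 features closer.

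Markers of other heart cells were read beside these values, and their part in them was not tested. The shares called over miRNA features were 17.0% higher and 6.41% lower, and over all features 23.2% and 27.0%. All 7 cardiomyocyte miRNA genes had counts, Mir208a, Mir208b and Mir499 among them. Of these 7, Mir1a-1 (log2 fold change -0.57) and Mir1a-2 (-0.61) fell, Mir208b rose (0.79) and 4 were not called, and the list held 30.9% to 38.5% of miRNA counts in control and 23.6% to 24.9% in knockout hearts. Of 4 fibroblast genes, Mir199a-1 (0.79) and Mir199b (0.74) rose. Mir199a-2 and Mir214 were at 0 and lie on a same-strand exon of Dnm3os, another feature of the table, and the list held 0.332% to 0.424% against 0.592% to 0.763%. Of 7 blood genes, 5 were tested, 1 rose (Mir144, 0.85) and 2 fell (Mir486, -0.67, and Mir150, -0.59). Mir451a (0.40) and Mir142 (0.51) were not called. Mir486 had the most counts of this list, and Mir223 was at 0 and lies on a same-strand exon of F630028O10Rik. The blood list held 0.727% to 1.12% of miRNA counts in control and 0.675% to 0.831% in knockout hearts. Among 7 genes known from liver or neurons, Mir122, of hepatocytes, had 127 counts over the 6 libraries, Mir9-1 had 1933 and Mir9-3 had 1914. The other 4 (Mir124a-1, Mir124a-2, Mir124a-3 and Mir9-2) had 0 to 2 counts, and each lies on a same-strand exon of another feature of the table. Of the 3 tested, 0 were called by edgeR or DESeq2, with 0 at an unadjusted edgeR p under 0.05.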

How the data were processed

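For each of 6 hearts the authors deposited a raw count per feature and normalized counts (a signal, the count divided by 1 size factor per library, as found from the values), and a comparison with log2 fold changes, p-values and a Wald score, per the file headers. The tools named, per the submitters' processing notes, are DESeq2 1.16.1, featureCounts 1.5.1, Bowtie2 2.2.9 and cutadapt 1.14, with build mm10. How strand, multiple alignments and the 4 technical replicates per mouse were treated, and with which annotation, cannot be stated from the labels or headers. There were 0 columns of other samples.

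Features were kept by filterByExpr (minimum count 10, minimum total 15), which left 1144. The 3 knockouts were compared with the 3 controls by edgeR 4.0.16 in R 4.3.3 (glmQLFit, glmQLFTest, TMM, no covariate), with Benjamini-Hochberg adjustment over all features, and adjusted p-values are from edgeR unless another test is named. The script was tested on simulated data. DESeq2 1.42.0 was an alternative. Shares and log2 ratios (prior count 2) were compared with exact permutation tests (SciPy 1.17.1). Positions came from GENCODE M21 and sequences from RefSeq (GRCm38.p6), which matched Mir126a and Mir126b. Between libraries of 1 group, chi-square per degree of freedom was 79.1 or more, so none was counted as a duplicate. Alternatives changed the scaling, the filter, the test, the libraries, the pairing and the denominators.

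The 4 genes and the gene lists were chosen with earlier results of these data known. Named genes are the 4 members, the 6 most abundant tested genes of the vascular list, the 3 features closest in pattern to Mir126a and to Mir143, and the most abundant miRNA. Others are named to fill a count or a marker list, and their values were known.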

Additional observations from a re-analysis of the deposited data

How the results depend on the processing

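Mir126a, Mir143 and Mir145a were not called under TMM, DESeq2's size factors, miRNA-based factors, DESeq2's Wald test, the replicate block or with any 1 library left out. They were called lower with total counts alone (log2 fold changes -0.48, -0.55 and -0.59) and with snoRNA-based factors (-0.74, -0.82 and -0.86). Signs were reversed, without a call, with snRNA- and rRNA-based factors (0.38, 0.32 and 0.28) and without a filter on low counts (0.22, 0.15 and 0.11), where 9254 features set the TMM factors. Leaving out 1 library gave -0.22 to 0.16 for Mir126a (above zero without control replicate 1 and without knockout replicate 1, 2 or 3), -0.34 to 0.14 for Mir143 (above zero without knockout replicate 1) and -0.40 to 0.060 for Mir145a (above zero without knockout replicate 1 or 2). Without knockout replicates 1 to 3 the median of the features in common moved by 0.21, 0.24 and 0.22. The difference in the Mir143 to Mir145a log2 ratio ran from -0.037 to 0.087, below zero without control replicate 2 or knockout replicate 2, and that in the Mir126a to Mir143 ratio from 0.020 to 0.13. With 1 library left out, differences in the share of miRNA counts kept their sign, at -0.39 to -0.037 percentage points for Mir126a, -1.11 to -0.579 for Mir143 and -0.0333 to -0.0106 for Mir145a. Without Mir1a-1 in the total they were -0.679, -1.46 and -0.0401, and without both Mir1a genes, tried after seeing the data, -1.52, -2.74 and -0.0715. The 574 called features became 1141 without a filter, 908 without control replicate 1 and 486 at the lowest with 1 library left out. In the vascular list 7 rose and 0 fell, against 4 and 14 with snoRNA-based factors and 13 and 0 with snRNA and rRNA-based factors. The shares over all features for these are given above. With the other scalings 0 to 9 fell. Total counts gave the 9, beside 37.8% of all features and 20.5% of miRNA features lower. With miRNA-based factors 3 fell, where 512 of 1144 features were called, 38.1% of them higher. With 1 library left out 5 to 9 rose and 0 fell. Over all features, 486 of 1168 to 908 of 1410 were then called, 38.4% to 46.7% of them higher. Same-numbered libraries did not deviate together (r from -0.19 to -0.016 across genes, 0 of 6 closest to their own number). With the replicate block 536 features were called, and the log2 fold changes were -0.13, -0.21 and -0.25. The other causes of these changes were not tested. Results for Mir126b, and its ratio to Mir126a, were not run because it had 0 counts.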
